A study of Mus musculus with 22 samples.

Results

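The boundaries described here are borders of topologically associating domains (TADs) that lay far from every chromatin loop called in the same Hi-C maps. A boundary was taken when the midpoint of its 10 kb bin had no loop anchor midpoint, of any loop category, within 20 kb on its chromosome, and when the deposited k-means label was not cluster 5, which was left out. Of 6376 deposited boundaries, 719 carried the label of cluster 5, and 708 of those were also far from any anchor. Among the remaining 5657 boundaries, 2516 met the rule (44.5%, 95% Wilson interval 43.2 to 45.8%) against the anchors of 16370 loops. Both the cluster label and the loops were made from these maps, so the members were selected on measured values and their low strength next to anchored boundaries is a description, with no test.

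The maps came from in situ Hi-C, which counts ligated pairs of genomic sites that were close in the nucleus. The cells were G1E-ER4, a murine erythroblast line lacking endogenous GATA1 and carrying a GATA1-estrogen receptor fusion. In every group both CTCF alleles ended in an auxin-inducible degron with mCherry, and OsTiR was expressed to couple the degron to ubiquitin ligases. Cells were arrested in prometaphase with nocodazole at 200 ng/ml and released for 0, 30, 60 or 120 min, giving populations in prometaphase, ana/telophase, early-G1 or mid-G1, either without auxin (-auxin, CTCF present) or with auxin (+auxin, CTCF degraded). The growth protocol gives 25 min for the time labelled 30 min. Cells were sorted on DNA content and mCherry, prometaphase cells also on a mitotic marker, and ana/telophase cells on a GFP that is degraded at mitotic exit. The retroviral OsTiR construct therefore differed between stages, with this GFP-MD in the ana/telophase groups and plain GFP in the others. The 18 libraries formed 8 groups, with 3 replicates for each mid-G1 group and 2 for each other group, and 4 triptolide libraries were not used. The replicates of a group had been merged before the boundaries were measured. Each boundary therefore has 1 value per group in the table used here, which gives no replicate error and allows no test between treatments. Maps of single replicates were not analysed here. The spread given below is the SD of single-chromosome medians, which measures how alike the 20 chromosomes were and not how reproducible the cells were. The tables used here give no contact numbers behind a value and no expression, so neither depth nor the erythroid identity of the cells could be checked from them.

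A TAD boundary is a site across which chromatin contacts are depleted. Many boundaries are places where CTCF, bound to DNA in a given orientation, stops the loop-extruding cohesin ring, and a pair of such stops appears in the map as a loop. Other boundaries lie between active and inactive chromatin or at transcribed genes and need no CTCF. Boundaries are lost in mitosis and rebuilt as cells enter G1. Boundary strength here is the deposited ΔIS, the highest insulation score within 120 kb minus the score at the boundary, on an unlogged scale relative to the chromosome mean. It is 0 or above by construction, so a site with no insulation still has a small positive value. Per the methods, boundaries called without auxin had been moved to the insulation minimum of the mid-G1 -auxin map. Domains called with auxin whose ends were both far from those boundaries were added at their own coordinates. Where a single end was far, the domain was also added, and only its near end took the -auxin position. The mid-G1 -auxin map thus chose the position of boundaries called without auxin, and the table does not mark those added from domains called with auxin.

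3 sequences show what some of these bins hold, in mm9 and 5′ to 3′ on the strand given. They are the CTCF core consensus matches, with the match in capitals and flanks in lower case, from 3 of the strongest members in mid-G1 -auxin that had such a match. These bins were picked after their values were seen.
Atp6v1e1 and Slc25a18 bin, chr6:120743147-120743186, plus strand: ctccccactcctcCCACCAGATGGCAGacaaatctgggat
Ddx49 and Homer3 bin, chr8:72810816-72810855, plus strand: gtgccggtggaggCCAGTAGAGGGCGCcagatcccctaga
Bin without a gene, chr8:121882922-121882961, plus strand: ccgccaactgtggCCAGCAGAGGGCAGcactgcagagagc

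The members were weak boundaries whose median strength was higher at each stage after mitosis. Their median strength without auxin started at 0.0753 ± 0.0074 (SD over chromosomes, n = 2516 boundaries) in prometaphase, reached 0.170 ± 0.028 by ana/telophase and 0.234 ± 0.034 by early-G1, and ended at 0.280 ± 0.038 in mid-G1. With auxin it was 0.0741 ± 0.0063, 0.144 ± 0.022, 0.198 ± 0.031 and 0.218 ± 0.041 at the same stages. The median thus increased through G1 with and without CTCF. The +auxin median was the lower one at all 4 stages, in prometaphase by less than either SD over chromosomes and in ana/telophase by less than the -auxin SD but more than the +auxin SD. Boundaries within 20 kb of an anchor (n = 3141) went from 0.112 in prometaphase to 0.828 in mid-G1 without auxin and from 0.0989 to 0.525 with auxin. In mid-G1 -auxin the upper quartile of the members, 0.529, was below the lower quartile of the anchored boundaries, 0.561.

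Distance beyond the limit divided the members. The nearest anchor lay a median of 100 kb away, with quartiles of 40 and 382.5 kb and a maximum of 7.27 Mb. 3 ranges of distance, set after the values were seen, held 854 members (20 to 50 kb), 739 members (50 to 200 kb) and 923 members (over 200 kb). Their mid-G1 -auxin medians were 0.520 ± 0.079, 0.311 ± 0.052 and 0.130 ± 0.017, against prometaphase medians of 0.0936, 0.0782 and 0.0588. Strength was at least 2 times the prometaphase value in 91.6%, 80.2% and 56.6% of them in mid-G1 -auxin, compared with 96.1% near an anchor. It was below the prometaphase value in 1.76%, 5.01% and 12.8%, compared with 0.669% near an anchor. The boundaries over 200 kb from an anchor therefore lay closest to the level seen in mitosis.

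**Figure D1:**
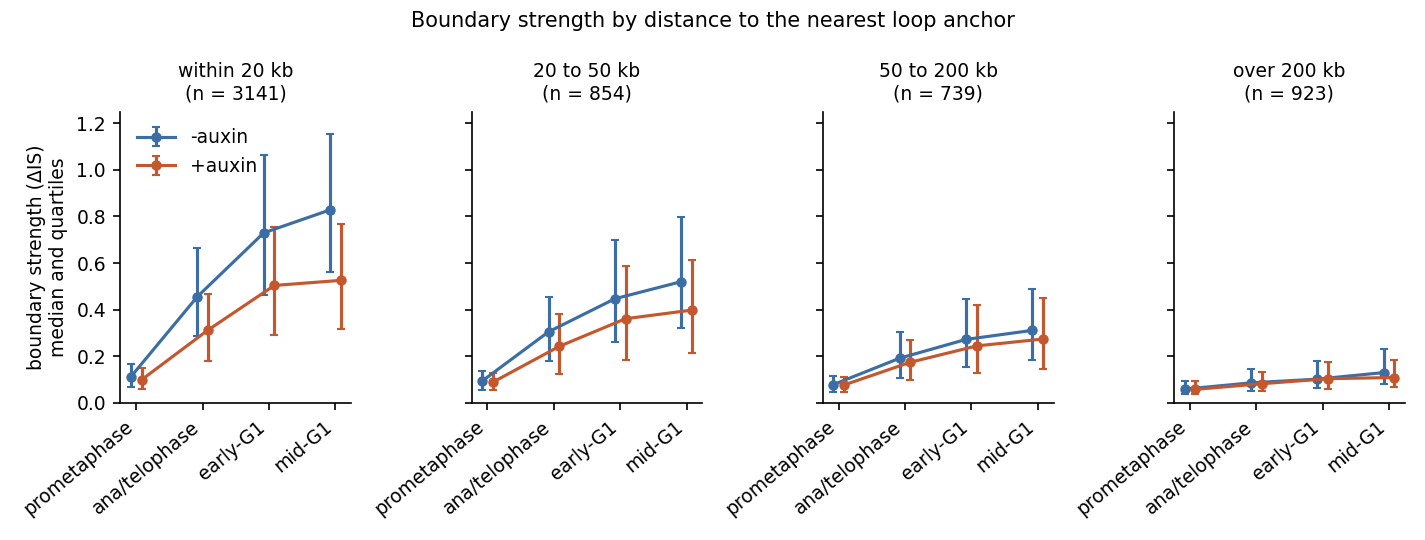
Median boundary strength (ΔIS, unlogged, vertical axis) with quartiles as bars at 4 stages (horizontal axis), for boundaries within 20 kb of a loop anchor and for members in 3 ranges of distance, -auxin in blue and +auxin in orange. The medians were higher after prometaphase in all 4 panels, at 0.828, 0.520, 0.311 and 0.130 in mid-G1 -auxin, and the treatments lay closer together with distance.

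Strength declined with distance on both sides of the limit. In finer ranges the mid-G1 -auxin median was 0.889 within 10 kb (n = 2386), 0.690 from 10 to 20 kb (n = 755), 0.580 from 20 to 30 kb (n = 396), 0.475 from 30 to 50 kb (n = 458), 0.357 from 50 to 100 kb (n = 432) and 0.259 from 100 to 200 kb (n = 307). Just inside the limit, the 481 boundaries at exactly 20 kb had a median of 0.690, and the 146 at 17.5 kb had 0.667. Just outside it, the 90 members at 22.5 kb had 0.572. With auxin the decline was shallower, from 0.558 within 10 kb to 0.218 at 100 to 200 kb.

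At the median the members were weaker with auxin after mitosis, and as a ratio of deposited strengths by less than anchored boundaries were. The log2 change of a boundary is log2 of its +auxin over its -auxin strength, with no pseudocount. Its median over the members was -0.01 ± 0.10 in prometaphase and -0.20 ± 0.07 by ana/telophase. It was then -0.18 ± 0.08 at early-G1 and -0.30 ± 0.09 at mid-G1. The median near an anchor was -0.15 ± 0.08, -0.52 ± 0.07, -0.54 ± 0.08 and -0.64 ± 0.09. These ratios include the strength that boundaries kept in prometaphase, which made up more of the members' values. Taken as the ratio of the rises of the median above its prometaphase value, a measure added after the values were seen, the mid-G1 log2 change was -0.51 ± 0.29 for the members and -0.75 ± 0.14 near an anchor, with spreads that overlapped. Relative to the median over all 5657 boundaries at a stage, the members' change has the opposite sign, with medians of 0.18, 0.19 and 0.21 from ana/telophase onward. In mid-G1 the quartiles of the members were -0.83 and 0.13, so both directions were common, and 68.2% of them were below 0 compared with 84.6% near an anchor. Mid-G1 -auxin is the map to which boundaries called without auxin were adjusted. The early-G1 medians were -0.18 for the members and -0.54 near an anchor, and the part of the adjustment in the contrast was not tested.

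The change beside anchors differed by loop class, and the members are set beside these classes. Structural loops have CTCF and cohesin at both anchors and cis-regulatory elements (CREs) at 1 anchor or none, dual-function loops have both features at both anchors, and CRE loops join CREs without CTCF and cohesin at both. The mid-G1 median log2 change was -0.89 ± 0.17 beside structural loops only (n = 1014), -0.68 ± 0.11 beside dual-function loops (n = 1204) and -0.19 ± 0.12 beside CRE loops with neither of the others (n = 441). It was -0.62 ± 0.17 beside both structural and CRE loops (n = 241). Beside loops of none of these categories it was -0.32 ± 0.31 (n = 241), close to the -0.30 of all members. The members gave -0.45 ± 0.13 at 20 to 50 kb, -0.23 ± 0.13 at 50 to 200 kb and -0.26 ± 0.17 over 200 kb. In early-G1 the change over 200 kb was -0.11 ± 0.16. Beyond 50 kb the mid-G1 -auxin medians of 0.311 and 0.130 were below the 0.667 of the CRE class. As the ratio of rises above prometaphase the mid-G1 values were -0.25 ± 0.24 in the CRE class, -0.24 ± 0.35 at 50 to 200 kb and -0.48 ± 0.42 over 200 kb, where the median rose by 0.0711 without and 0.0509 with auxin.

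**Figure D2:**
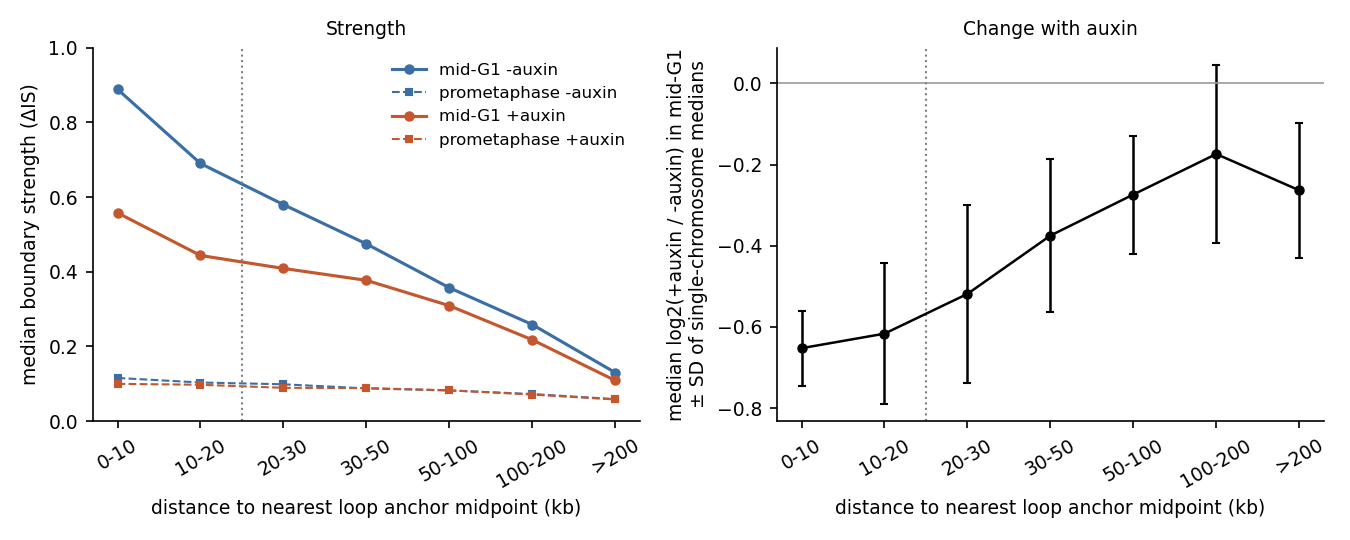
Left, median boundary strength (ΔIS) in mid-G1 (solid) and prometaphase (dashed) against distance to the nearest loop anchor midpoint in kb, -auxin blue and +auxin orange. Right, median log2(+auxin / -auxin) in mid-G1 ± SD of single-chromosome medians; the dotted line is the 20 kb limit, and the change went from -0.65 within 10 kb to -0.17 at 100 to 200 kb and -0.26 beyond.

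Strength differed between the classes, so the change was also read within ranges of strength. Boundaries were placed in ranges of early-G1 -auxin strength, chosen after the values were seen, and the log2 change was read in mid-G1, from separate libraries. Between 0.2 and 0.4 the median was -0.28 ± 0.17 for 641 members and -0.57 ± 0.34 for 430 anchored boundaries. Between 0.4 and 0.8 it was -0.29 ± 0.13 for 565 members and -0.58 ± 0.18 for 1167 anchored boundaries. Above 0.8 it was -0.50 ± 0.17 for 187 members and -0.69 ± 0.10 for 1385 anchored boundaries. The members' median was nearer 0 in these 3 ranges, with spreads that overlapped in each, and strengths within a range were not matched. Between 0.1 and 0.2 the medians were -0.37 ± 0.34 (533 members) and -0.42 ± 0.70 (120 anchored boundaries). Below 0.1 they were -0.15 ± 0.27 (590 members) and 0.66 ± 1.62 (38 anchored boundaries), so no difference could be read there.

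Single boundaries were read by counting those at least 1.5-fold weaker or stronger with auxin, and the prometaphase maps give the same counts where the members' median strength was lowest. In prometaphase 718 members (28.5%, interval 26.8 to 30.3%) were weaker, where all 5657 boundaries gave 28.9%, and 676 (26.9%, interval 25.2 to 28.6%) were stronger, where all boundaries gave 22.0%. In ana/telophase 679 (interval 25.3 to 28.8%) were weaker beside 37.3% of all boundaries, and 330 (13.1%) were stronger beside 7.83%. In early-G1 705 (28.0%) were weaker beside 38.3% of all, and 367 (14.6%) were stronger beside 8.96%. In mid-G1 887 (35.3%, interval 33.4 to 37.1%) were weaker beside 45.7% of all, and 291 (11.6%, interval 10.4 to 12.9%) were stronger beside 7.23%. The share weaker was below that of all boundaries at the 3 post-mitotic stages. With a pseudocount of 0.1, which damps ratios of values near 0, 8.43% of members were weaker and 7.43% stronger in prometaphase, compared with 23.5% and 5.60% in mid-G1.

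By distance, 41.8%, 28.1% and 34.9% of members were weaker in mid-G1 and 6.09%, 13.4% and 15.2% were stronger, from the nearest range to the farthest. Near an anchor the shares were 54.1% and 3.76%, and beside CRE loops alone they were 22.7% and 10.9%. The direction held through the post-mitotic stages in part of the members: 1032 (41.0%) were weaker at all 3 of them and 342 (13.6%) stronger at all 3, compared with 74.6% and 9.17% near an anchor and 59.7% and 11.1% of all boundaries. Beyond 200 kb 25.4% were weaker and 11.9% stronger at all 3 stages. Beside CRE loops alone these shares were 49.0% and 20.4%, so a larger share stronger was not particular to the members.

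**Figure D3:**
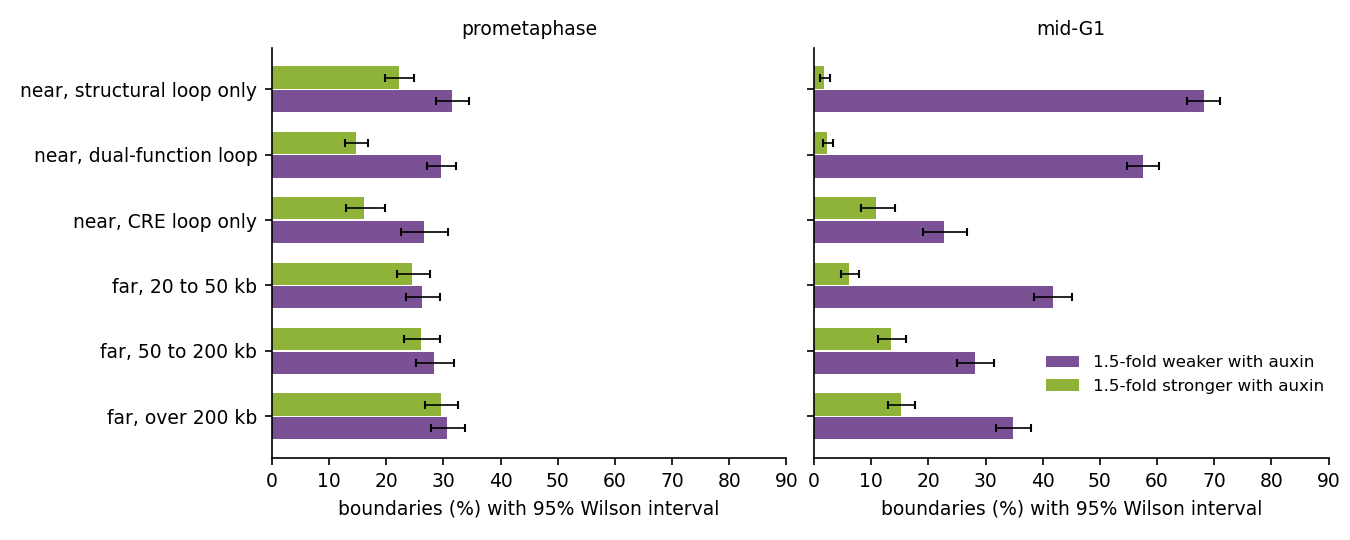
Percent of boundaries at least 1.5-fold weaker (purple) or stronger (green) with auxin in prometaphase and in mid-G1, with 95% Wilson intervals. Shown are members by distance and boundaries near structural loops only, dual-function loops or CRE loops alone. In prometaphase the members' bars are of like height, 26.3 to 30.7% weaker and 24.6 to 29.6% stronger. In mid-G1 the share weaker was 68.1% beside structural loops, 22.7% beside CRE loops alone and 28.1 to 41.8% in the members.

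Boundaries ranked alike by their change in successive stages near anchors, and less so with distance. Across boundaries, Spearman's rho between the early-G1 and the mid-G1 log2 change, which come from separate libraries read at the same positions, was 0.90 near an anchor (n = 3140). It was 0.81 in members at 20 to 50 kb (n = 854), 0.64 at 50 to 200 kb (n = 739) and 0.32 over 200 kb (n = 923). Between ana/telophase and early-G1 it was 0.64, 0.48 and 0.11 in the 3 ranges. Between prometaphase and mid-G1 it was 0.04, 0.04 and 0.02. Boundaries are not independent replicates, and these values describe the maps only.

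Members within 200 kb of an anchor had made a share of their rise to mid-G1 close to that of anchored boundaries at each stage. The measure is the rise of mean strength from prometaphase, as a percentage of its rise to mid-G1. Over all members, at any distance, it reached 47.3% ± 3.3 (SD over chromosomes) by ana/telophase and 82.2% ± 3.6 by early-G1 without auxin. Near an anchor it reached 49.1% ± 1.9 and 88.5% ± 2.3. Members at 20 to 50 kb reached 49.2% ± 4.8 and 84.9% ± 3.4, and those at 50 to 200 kb reached 48.0% ± 3.5 and 84.4% ± 6.4. Members over 200 kb stood at 38.3% ± 7.1 and 67.4% ± 8.4, where the mean strength itself moved only from 0.0712 in prometaphase to 0.184 in mid-G1. With auxin all members reached 49.1% ± 4.1 and 91.5% ± 4.9 of their rise, which ended at a mid-G1 mean of 0.299 compared with 0.374 without auxin. The mid-G1 end point without auxin is the map to which those positions were adjusted, and its part in these percentages was not tested.

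The deposited clusters 1 to 4 sorted boundaries by their response to auxin over these same maps, so their shares describe and do not test. Of the members, 635 (25.2%) were in cluster 1, 564 (22.4%) in cluster 2, 854 (33.9%) in cluster 3 and 463 (18.4%, interval 16.9 to 20.0%) in cluster 4. Near an anchor the shares were 21.2%, 46.9%, 27.9% and 4.04% (interval 3.41 to 4.79%). Cluster 4, in which strength was higher with auxin, made up 6.67% of members at 20 to 50 kb, 17.1% at 50 to 200 kb and 30.3% over 200 kb. Cluster 1, in which strength was lower with auxin, made up 22.6%, 19.1% and 32.6% in these ranges. The 463 members in cluster 4 had mid-G1 medians of 0.0893 (-auxin) and 0.133 (+auxin), and a prometaphase -auxin median of 0.0617. Cluster 3 had a median mid-G1 log2 change of -0.02, with strengths of 0.389 without and 0.408 with auxin. Cluster 1 had the change furthest below 0, -1.25, from 0.218 to 0.0889, and 85.2% of its members were at least 1.5-fold weaker. In cluster 2 the change was -0.60, from 0.501 to 0.312.

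The bins of the members held fewer transcription starts than anchored bins, and their share was close to that of all genome bins. A protein-coding transcription start lay in 229 of them (9.10%, interval 8.04 to 10.3%), compared with 21.7% near an anchor (interval 20.3 to 23.2%) and 10.0% of 255585 mm9 bins of 10 kb. By distance the share was 12.3%, 10.8% and 4.77%, from the nearest range to the farthest. It was 29.8% beside dual-function loops and 23.1% beside CRE loops alone. The nearest start was a median of 49.4 kb from the bin midpoint, compared with 14.2 kb near an anchor, and a median of 3 compared with 6 protein-coding genes lay within 250 kb. Median GC content was 41.0%, compared with 44.8% near an anchor and 41.2% over the genome. The bin lay inside a gene in 27.9% of members, with a median gene length of 197 kb compared with 73.9 kb for anchored boundaries inside genes. No loop spanned 53.1% of the members, compared with 17.2% of anchored boundaries.

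Matches to the CTCF core consensus, a 14-base motif searched on both strands, were likewise at the genome level. A match lay in 60 member bins (2.38%, interval 1.86 to 3.06%), where 8.69% of anchored bins (interval 7.76 to 9.73%) and 2.47% of all genome bins held one. The share was 11.5% beside dual-function loops and 1.36% beside CRE loops alone. A match is a description of letters and not a measured binding site, and its absence says nothing about CTCF. The 60 members with a match had a median mid-G1 log2 change of -0.54, compared with -0.30 in the 2456 without one, and median mid-G1 -auxin strengths of 0.400 and 0.278. The spread of single-chromosome medians in the group of 60 was 0.85, larger than that difference.

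**Figure D4:**
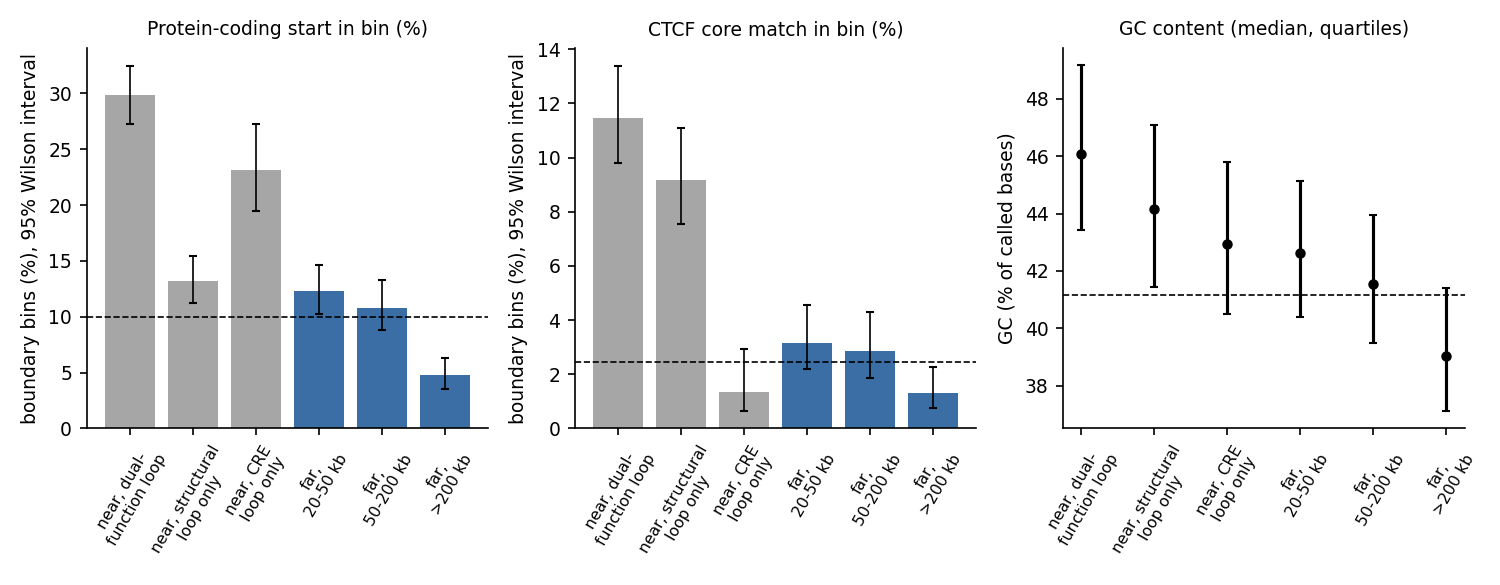
Share of boundary bins with a protein-coding transcription start (left) or a CTCF core match (middle), with 95% Wilson intervals, and GC content as median and quartiles (right), for boundaries near 3 classes of loop (grey bars) and members by distance (blue bars). Dashed lines are the values over all mm9 bins, 10.0%, 2.47% and 41.2%; members over 200 kb from an anchor lie below them, at 4.77%, 1.30% and 39.1%.

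Members with a transcription start were stronger boundaries than those without. Their mid-G1 -auxin median was 0.442 (n = 229) compared with 0.269 (n = 2287), and 0.360 compared with 0.208 with auxin. Bins with a start lay a median of 60 kb from an anchor and the others 107.5 kb, and the part of distance in this was not tested. At 20 to 50 kb the mid-G1 -auxin medians were 0.583 (n = 105) with and 0.513 without a start, and at 50 to 200 kb they were 0.387 (n = 80) and 0.304. Over 200 kb they were 0.157 (n = 44) and 0.129. The mid-G1 log2 change was -0.37 with and -0.30 without a start, a difference under the SD over chromosomes of 0.32 for the bins with one. The 1469 bins that overlap no protein-coding gene had a median of 0.243 in mid-G1 -auxin and a change of -0.28.

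Each of the gene families examined gave few member bins. Olfactory receptor genes, odorant receptors that are expressed mainly in sensory neurons, gave 14 member bins (0.556%), compared with 0.350% of anchored bins, among them those of Olfr1047, Olfr136 and Olfr69. Zfp zinc finger genes gave 8 (0.318%), including Zfp106 and Zfp182, compared with 0.382% of anchored bins. Slc solute carriers gave 3 (0.119%), compared with 0.478% of anchored bins. The vomeronasal receptor, protocadherin, cytochrome P450, serpin and Kcn potassium channel families gave 1 member bin each, compared with 2, 0, 1, 0 and 3 anchored bins. No keratin, histone or Hox gene started in a member bin, and each of these families had 2 anchored bins. Genes with the prefixes Rpl and Rps gave a single member bin, that of Rps6ka3, a signalling kinase and no ribosomal protein, while 7 anchored bins held Rpl or Rps starts. None of 26 erythroid regulators and products, among them Gata1, Tal1 and the globin genes Hbb-b1 and Hba-a1, started in a member bin or within 1 bin of one. None started in an anchored bin either, and 6 anchored bins had one within 1 bin (Etv6, Gata2, Ldb1, Myb, Myc and Runx1).

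Chromosome X stood apart in the number of members. On it 229 of 303 boundaries (75.6%, interval 70.4 to 80.1%) were far from any anchor, compared with 28.2 to 51.8% on the autosomes. The median mid-G1 -auxin strength of X members, 0.266, was close to that of autosomal members, 0.280. The X members lay a median of 230 kb from an anchor, compared with 90 kb on autosomes. Their median log2 change in mid-G1 was -0.52, beyond the autosomal range of -0.41 to -0.19, and the 74 anchored boundaries of X had -0.93 compared with -0.64 on autosomes. Chromosome copy number and contact numbers per chromosome were not in the tables, and their part in the X values was not tested. Without X the members' median change was -0.29.

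Single members are named next by rules on the values shown, so these values are descriptions. The 8 strongest members in mid-G1 -auxin had strengths of 1.64 to 2.09. For anchored boundaries the upper quartile was 1.15 and the 90th percentile 1.48, and their highest values are not given here. The strongest member, at chr7:67940001-67950000 and 70 kb from an anchor, held no protein-coding gene, with the nearest start 422 kb away. Its strength was 1.16, 1.95, 1.58 and 2.09 from prometaphase to mid-G1 without auxin and 1.55, 1.66, 2.05 and 1.98 with auxin. It was thus strong already in mitosis, and neither treatment was higher throughout.

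Most of the others followed the usual course, low in prometaphase and high in G1. At chr4:9750001-9760000, with no protein-coding gene, strength went from 0.113 to 1.28, 1.94 and 1.90 without auxin and from 0.152 to 1.05, 1.48 and 1.24 with auxin. At chr6:17810001-17820000, in an intron of St7, it went from 0.0361 to 1.05, 1.60 and 1.81 without auxin and from 0.0197 to 0.590, 0.753 and 0.792 with auxin. The mid-G1 log2 change of this member was -1.19, and that of the bin at chr14:21140001-21150000 in Ecd was -1.10. They lay 30 and 60 kb from an anchor.

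Smaller differences were measured at 3 gene bins on other chromosomes. At chr2:152680001-152690000, in Tpx2, whose product builds the mitotic spindle, the mid-G1 values were 1.78 (-auxin) and 1.26 (+auxin). At chr15:77570001-77580000, in Apol8 of the apolipoprotein L family, they were 1.76 and 1.28. At chrX:13270001-13280000, in an intron of Cask, a membrane-associated scaffold protein, they were 1.65 and 1.10. In these 3 bins the -auxin value was the higher one at every post-mitotic stage.

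The remaining one of the 8, at chr12:104900001-104910000 in Gm46, was again strong in mitosis. Its strength was 1.12, 1.43, 1.24 and 1.85 without auxin and 1.34, 1.37, 1.37 and 1.27 with auxin. A total of 11 of the 2516 members had a prometaphase -auxin strength of 0.5 or more, compared with 9 of the 3141 anchored boundaries. No difference was read from these low counts. The highest member was at chr7:51480001-51490000 with the starts of Gm10109 and of Klk1, a tissue kallikrein in a tandem gene cluster. It had 1.33, 1.04, 0.919 and 1.35 without auxin. With auxin it had 0.714, 1.21, 1.29 and 1.29. The 11 members, found after the values were seen, had mid-G1 -auxin strengths of 0.622 to 2.09.

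**Figure D5:**
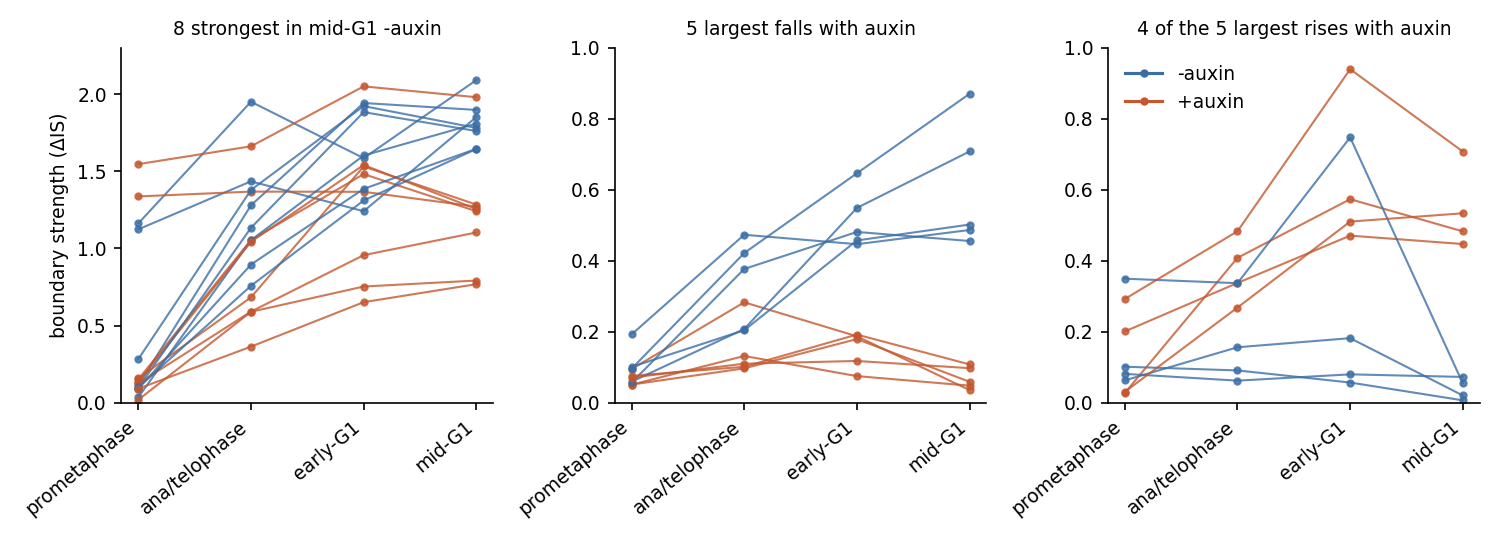
Boundary strength (ΔIS, vertical axis) at 4 stages for single members, 1 line per member and treatment, -auxin blue and +auxin orange: the 8 strongest in mid-G1 -auxin, the 5 with the largest fall and 4 of the 5 with the largest rise with auxin in mid-G1. A pair of members among the strongest was above 1.1 in prometaphase already, and the rises start from mid-G1 -auxin values of 0.00709 to 0.073.

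Of 1143 members with a mean strength of at least 0.2 over the 8 maps, 596 (52.1%) had the lower and 170 (14.9%) the higher value with auxin at each of the 3 post-mitotic stages, compared with 69.1% and 10.6% of all boundaries of that mean strength. The largest fall in mid-G1 among them was at chr3:68740001-68750000 in Ift80, an intraflagellar transport gene, with 0.473, 0.447 and 0.487 after mitosis without auxin and 0.283, 0.187 and 0.0358 with auxin. Chromosome 3 carries a translocation in these cells, per the methods. At chr15:79740001-79750000, which overlaps Apobec3, a cytidine deaminase, and Cbx7, a Polycomb subunit, strength was 0.377, 0.481 and 0.456 without auxin. With auxin it was 0.132, 0.0753 and 0.0484, and by mid-G1 it was near the +auxin prometaphase value of 0.0510.

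Similar values were measured at chr8:85730001-85740000 in Tbc1d9, with 0.708 in mid-G1 without and 0.0977 with auxin. The bin at chr16:49480001-49490000, 290 kb from an anchor and without a gene, had 0.502 and 0.0593. A bin on chromosome 18 without a gene had 0.870 and 0.108. In all 5 the mid-G1 +auxin strength lay between 0.0358 and 0.108, below the upper quartile of members in prometaphase, 0.115.

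Of the 5 largest rises 4 are given here. At chr3:137560001-137570000 in Dnajb14, a co-chaperone gene, strength was 0.0625, 0.0803 and 0.0730 after mitosis without auxin and 0.268, 0.511 and 0.534 with auxin. At chr19:45410001-45420000, without a gene, it was 0.00709 in mid-G1 without and 0.447 with auxin, and at chr8:77700001-77710000, also without a gene, 0.0207 and 0.483. These 3 bins had low -auxin strength at all 3 post-mitotic stages, the highest value being 0.182. The other one, at chr12:88970001-88980000 in an intron of BB287469, had 0.748 in early-G1 without auxin and 0.0548 in mid-G1, with 0.940 and 0.708 with auxin. A single -auxin map thus set its log2 change of 3.69, and its early-G1 change was 0.33.

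The members that changed least among those with a mid-G1 -auxin strength of at least 0.5 were at chr6:73250001-73260000, with no gene, and at chr3:5410001-5420000 in Zfhx4, a zinc finger homeobox gene. The first had 0.370, 0.530 and 0.526 after mitosis without auxin and 0.292, 0.444 and 0.525 with auxin. The second had 0.385, 0.673 and 0.792 without auxin and 0.237, 0.524 and 0.793 with auxin. Both were weaker with auxin in ana/telophase and early-G1 and level in mid-G1.

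The 3 members farthest from any anchor were all on chromosome X, with the nearest protein-coding starts 119 to 152 kb away. The bins at chrX:117280001-117290000 and chrX:123200001-123210000 lay 7270 kb from an anchor, and that at chrX:124100001-124110000 lay 6370 kb away. Their mid-G1 strengths were 0.104, 0.0993 and 0.0595 without auxin and 0.0658, 0.103 and 0.0457 with auxin. The prometaphase values without auxin were 0.0532, 0.160 and 0.0243. Every mid-G1 value of these 3 bins was below 0.115, the upper quartile of all members in prometaphase -auxin.

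The 3 bins whose CTCF core matches are printed above were also followed through the maps. The bin of the chromosome 6 match, in Atp6v1e1, a proton pump subunit, and Slc25a18, a mitochondrial carrier, measured 1.51 (-auxin) and 0.984 (+auxin) in mid-G1. The bin of the first chromosome 8 match, in Ddx49, an RNA helicase, and Homer3, a synaptic scaffold, had 1.20 and 0.973. That of the second, with no gene, had 1.18 and 0.630. They lay 30, 47.5 and 50 kb from the nearest anchor, and the mid-G1 log2 changes were -0.62, -0.31 and -0.91.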

How the data were processed

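The members and the lists were chosen with earlier results of these data known. Per the methods, the authors aligned reads to mm9 with HiC-Pro and Bowtie2, merged replicates, balanced 10 kb maps (Knight-Ruiz), called TADs with rGMAP and loops with a modified HICCUPS on 10 and 25 kb maps. They deposited boundary strength as a signal, the unlogged insulation score in a 12-bin window relative to the chromosome mean (highest within 120 kb minus that at the boundary). The boundary coordinate, its cluster label and the loop summit positions are other deposited columns. The 8 columns of loop enrichment were not used. With 1 map per condition the counting noise of a map stays inside each value, and the depth behind a value is unknown from the boundary table. Library statistics and single-replicate maps were not used here.

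Distances run from the bin midpoint (coordinate + 5000) to the mean of each anchor's deposited edges. Medians, quartiles, shares with 95% Wilson intervals (counting error only) and log2 changes were computed with Python 3.11.15, pandas 2.3.3 and scipy 1.17.1. Boundaries with a value of 0 were left out of log2 changes (1 anchored boundary, no member). Genes were the protein-coding genes of GENCODE vM1, and sequence came from NCBIM37, which is mm9; sequences of chromosome 18 were not considered for printing. Genome bins needed called bases over at least 50% of their length. Named members were the 8 strongest in mid-G1 -auxin, the 5 largest falls and rises with a mean strength of at least 0.2 and the same direction at all 3 post-mitotic stages, the 3 farthest from an anchor and the 2 that changed least with a strength of at least 0.5. One of the rises is not reported here. Functions were tested on simulated data with known answers. Alternatives covered the distance limit, the anchor set, cluster 5, the bin position, chromosomes 3 and X, a pseudocount, a strength filter, centring, the recovery measure and the bin width.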

Additional observations from a re-analysis of the deposited data

How the results depend on the processing

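No paired analysis was possible because the boundary table used here holds 1 merged value per group; maps of single replicates were not analysed here. Of 350 values recomputed for 27 results, 236 moved by less than the spread over chromosomes or the counting interval, 111 moved further and 3 changed sign from a value beyond its spread. The prometaphase median change, which was within its spread of 0, also turned with centring, from -0.01 to 0.07, and is among the 236. The number of members, which has no spread, is given apart. All 27 stayed within that spread when the anchors were limited to loops with a 10 kb summit or to loops detected in -auxin cells, when the deposited coordinate was taken as the position, when chromosome 3 or X was left out, and when members with a prometaphase strength of 0.5 or more were left out (chosen after seeing the data). The median log2 change in mid-G1 of members minus that of anchored boundaries, 0.34 ± 0.08, moved by less than its spread under the alternatives that gave it, except for the ratio of the rises of the median above prometaphase (chosen after seeing the data), where it was 0.23 and the members' change was -0.51.

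The 2516 members became 3271 at a distance limit of 10 kb, 1838 at 40 kb, 2851 with 10 kb summits only, 2640 with -auxin loops only, 2745 with the deposited coordinate and 3224 with cluster 5 kept. At 10 kb the mid-G1 medians were 0.358 (-auxin) and 0.272 (+auxin), with 39.1% of members 1.5-fold weaker and 10.1% stronger. At 40 kb these were 0.214, 0.166, 32.3% and 13.5%, and 7.78% of bins held a start. At 100 kb the 1230 members gave 0.152, 0.124, 33.0% and 16.0%, with recoveries by ana/telophase of 40.4% (-auxin) and 43.3% (+auxin) and by early-G1 of 71.4% and 83.0%, starts in 6.02% and CTCF core matches in 1.63% of bins. At 200 kb, a limit chosen after seeing the data, the 923 members gave 0.130 and 0.109, 15.2% stronger, recoveries by ana/telophase of 38.3% and 42.0% and by early-G1 of 67.4% and 81.6%, starts in 4.77% and matches in 1.30%. With cluster 5 kept the medians were 0.200 and 0.149, 13.4% were stronger and 8.03% held a start.

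With a pseudocount of 0.1 the mid-G1 median change was -0.21, with 23.5% weaker and 5.60% stronger, and in prometaphase 8.43% and 7.43%. With a mean strength of at least 0.1 the mid-G1 medians were 0.394 and 0.321. Centring on the median of all boundaries turned the sign by construction, to 0.18, 0.19 and 0.21 from ana/telophase onward, with 17.9% weaker and 27.9% stronger in mid-G1. Within 1 bin of the boundary bin, 21.7% had a start and 7.51% a core match. The causes of the shifts were not tested. With 1 map per group, differences of single weak members cannot be separated from map noise.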
